A study of Homo sapiens with 12 samples.

Results

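The genes described here are 47 genes of the lysosome, chosen by symbol for their role. They were chosen with earlier results of these data known. Their shares set against all genes therefore describe them and are no test of the set. They comprise 3 transcription factors of lysosomal genes (TFEB, TFE3 and MITF), 6 proteins of the lysosomal membrane, 2 lumenal cofactors (NPC2 and PSAP), 21 hydrolases and 15 genes of the proton pump. The hydrolases are 8 peptidases, 8 glycosidases, 2 sulfatases and 3 lipid hydrolases, and the pump genes are 5 subunits of its membrane sector V0, 8 of its cytosolic sector V1 and 2 accessory proteins. Of the 47, 45 had a probe set annotated with exactly 1 symbol, and GLB1 and ATP6V1F had none. The filter, which asked for 5 log2 units on at least 3 arrays, was passed by 43 of them, among 10050 genes tested in all. TFEB and GAA were measured but lay below it. The values of TFEB ran between 4.41 and 4.81 over the 12 arrays and those of GAA between 3.06 and 5.08, near the background of the method, so neither was tested.

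HK-2, an established cell line of immortalised epithelial cells from the human kidney's proximal tubule, was exposed to Ra for 12 h, to its control vehicle for 12 h, to Ra for 48 h or to the vehicle for 48 h. The series belongs to a search for expression signatures of kidney toxicity, and the sources used here state neither the identity of Ra nor its dose. Total RNA of 3 samples per group, which the labels call biological replicates, was hybridised to Affymetrix arrays. All 4 groups are of 1 cell line, grown with EGF, hydrocortisone, insulin, transferrin and selenite in the medium and treated near confluency, and no label says whether replicates came from separate passages.

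Lysosomes are acidic organelles in which hydrolases break down proteins, glycans and lipids taken up by endocytosis or delivered by autophagy. The V-type ATPase acidifies them: its V1 sector splits ATP and turns a rotor, and its V0 sector lets protons through the membrane. In proximal tubule cells, which take up filtered proteins, lysosomes carry a large part of the breakdown. TFEB, TFE3 and MITF are related transcription factors that bind E-box letters in promoters of many lysosomal genes, and they are held in the cytoplasm when the kinase mTORC1 is active at the lysosomal surface, so that their transcript level alone does not show their activity.

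All values are GCRMA log2 expression values, each gene is represented by its brightest probe set, and levels are compared between samples and never between genes. The 12 h arrays were alike, with a median SD between replicates over all genes of 0.12 in both groups, against 0.43 in Ra-treated cells and 0.22 in control cells at 48 h. One array, Ra 48 h replicate 2, differed from the other 11: the median of the tested genes was 7.95 on it and 8.66 to 8.79 on the others. Differences at 48 h are therefore also given without it wherever that moved a printed value by over 1.5 times or turned its sign. The difference between the 3′ and 5′ probe sets of ACTB, a measure of RNA integrity, was 0.79 to 1.19 over the 12 arrays, with 1.13 on that array and 1.19, 1.13 and 0.90 on the control arrays of 48 h. GAPDH and ACTB differed by at most 0.18 log2 units in the comparisons of 2 groups and neither passed the test. Of the markers of the labelled cell type, 5 of 5 epithelial genes (KRT8, KRT18, KRT19, CDH1 and EPCAM) and 4 of 17 listed proximal tubule genes (SLC22A5, SLC4A4, PAX8 and CDH6) passed the filter, while the endocytic receptors LRP2 and CUBN and the transporter SLC34A1 did not. Of the other cell types' markers, 4 of 9 fibroblast genes (COL1A1, DCN, LUM and ACTA2) passed the filter and 0 of them passed the test in any comparison, while 0 of 8 endothelial, 0 of 8 macrophage and 0 of 7 distal nephron genes passed it.

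Promoters of the members are shown first because E-box letters are known from the promoters of many lysosomal genes. RefSeq's promoter table (GRCh38.p14; 250 bases before to 50 after each start) held 33 of the 47 members. Its sequences were searched for CACGTG, for TCACGTGA and for those 8 letters with a G before and a C after them, a form of the element known as CLEAR. Each is its own reverse complement, so both strands were searched at once, and each longer run contains the shorter ones. CACGTG was present in 11 of the 33 (33.3%), against 10.9% of the 8361 promoters of tested genes and 7.26% of all 35116 promoters. TCACGTGA was present in 6 (18.2%), against 2.15% of tested genes and 0.98% of all, and the longest form in 3 (9.09%; MCOLN1, GAA and ATP6V1G1), against 0.813% and 0.353%. The 5 below are the members above the filter that hold TCACGTGA before the start. They lie on the strand given, read 5′ to 3′, with every match in capitals.
LAMP1, a membrane glycoprotein, chr13:113297027-113297237, plus strand, 5 matches to CACGTG, and a further match spans the start: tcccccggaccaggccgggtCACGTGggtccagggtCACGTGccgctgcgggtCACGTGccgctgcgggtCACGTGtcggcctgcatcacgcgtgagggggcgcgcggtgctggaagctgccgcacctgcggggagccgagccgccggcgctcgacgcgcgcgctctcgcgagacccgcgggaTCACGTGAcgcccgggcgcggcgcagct
MCOLN1, a calcium channel of the lysosomal membrane, chr19:7522562-7522623, plus strand, 2 matches: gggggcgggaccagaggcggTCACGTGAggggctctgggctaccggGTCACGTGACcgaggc
CTSA, a serine carboxypeptidase, chr20:45891273-45891334, plus strand, 2 matches: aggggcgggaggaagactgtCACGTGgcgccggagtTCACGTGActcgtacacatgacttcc
ATP6V0D1, a V0 subunit, chr16:67481190-67481237, minus strand, 1 match: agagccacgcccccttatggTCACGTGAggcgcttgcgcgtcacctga
ATP6V1G1, a V1 subunit, chr9:114587689-114587738, plus strand, 1 match: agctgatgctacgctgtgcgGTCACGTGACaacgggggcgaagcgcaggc
The other members with CACGTG were CD63, CTSD, CTSF, NEU1 and ATP6V0B. A match describes these letters and says nothing of whether a factor binds there.

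**Figure D1:**
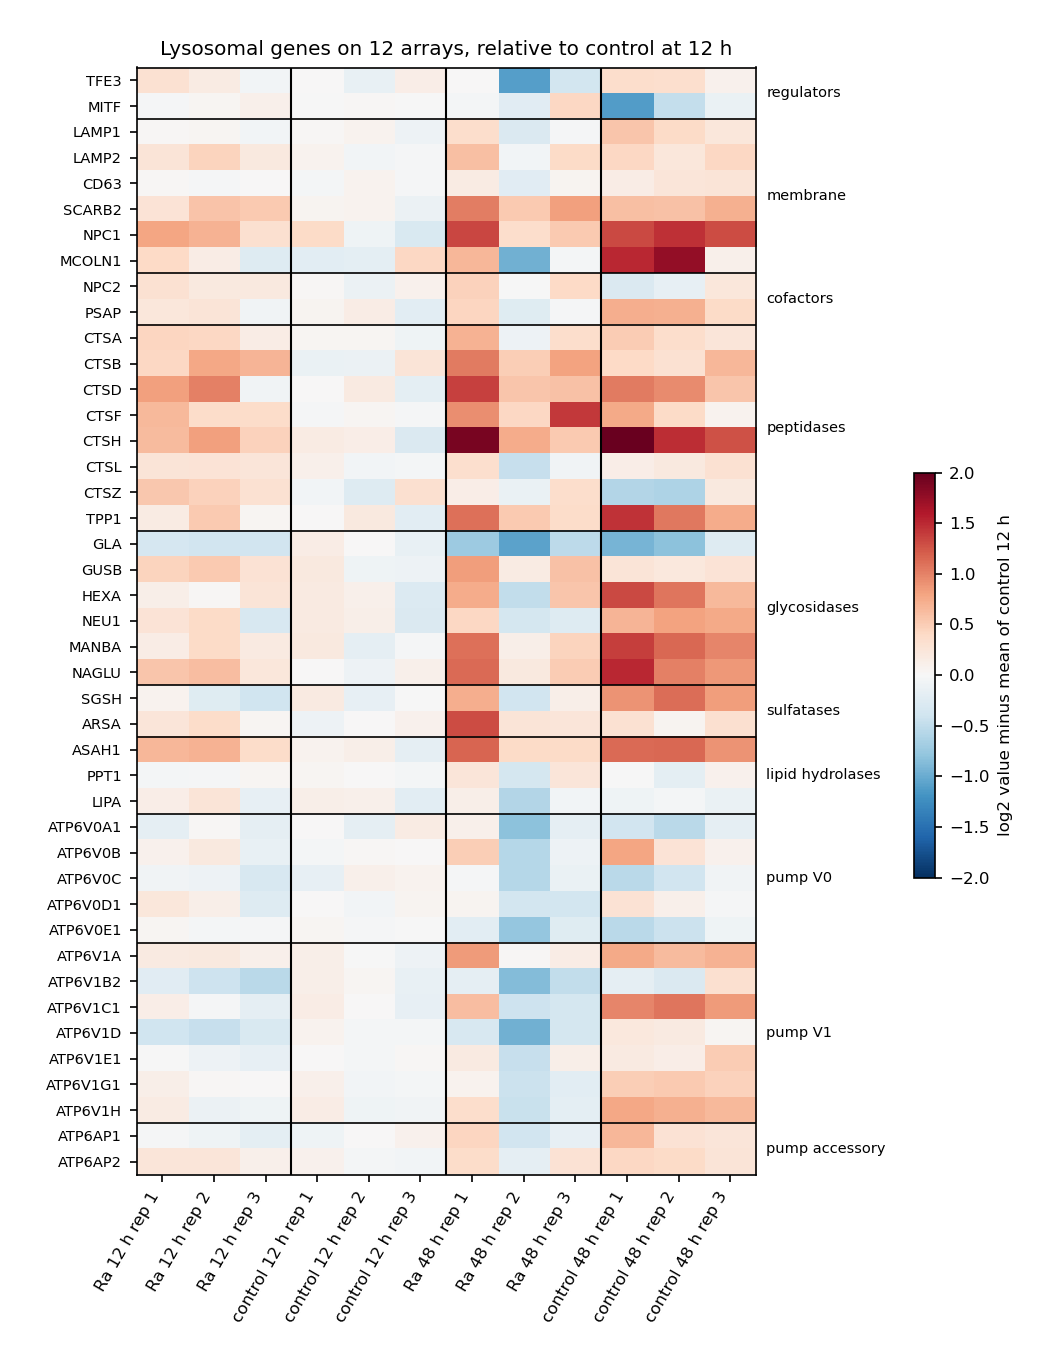
Colour gives the log2 value of each of 43 lysosomal genes (rows, by role) on each of 12 arrays (columns), minus the gene's mean over the control arrays of 12 h. Many hydrolases and membrane proteins are red on the control arrays of 48 h, GLA is blue there and with Ra, and the column of Ra 48 h replicate 2 is paler or bluer than its neighbours.

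The first comparison asked what Ra did to the lysosomal genes within 12 h. Several hydrolases and membrane proteins rose, among them the cathepsins CTSH, CTSB and CTSF, acid ceramidase (ASAH1) and the receptor SCARB2, all by less than 2-fold, while in the fit without the replicate block 0 of 14 measured pump genes rose and ATP6V1D fell. Of the 43 members, 7 rose (16.3%) and 2 fell (4.65%), by limma on the 6 arrays of 12 h at an adjusted p under 0.05. Over all genes 13.6% passed, 7.34% higher and 6.25% lower. The share of members that rose lay above that of all genes, and the share that fell did not. As the members were chosen with these data known, this is a description and no test of the set. No label says that the replicate numbers pair the samples, but same-numbered arrays of 12 h deviated together from their group means. With the number as a block 13 members rose, the pump gene ATP6AP2 among them, and 3 fell. In that alternative fit 2351 of the 10050 genes passed in all, against 1366 without the block. The median difference of the 43 was 0.13 log2 units, against 0.01 over all genes. The arrays of the groups did not overlap for 12 members that lay higher with Ra (27.9%, against 18.4% of all genes) and for 3 that lay lower (6.98%, against 16.9%). Of the cell type markers, EPCAM rose (0.34) and SLC22A5 (-0.76) and PAX8 (-0.46) fell, and the 4 fibroblast markers above the filter had differences of 0.33 to 0.44 without passing. Over all 9 fibroblast genes, the other 5 of them below the filter, the mean level was 5.46 to 5.57 on the Ra arrays and 5.29 to 5.40 on the control arrays, and the part of these markers in the result was not tested. In RNA of whole cultures, fewer cells of a type and less RNA per cell cannot be told apart.

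All 8 peptidases had higher means with Ra, with a median difference of 0.45, and 3 of them rose. CTSH, a cysteine aminopeptidase, had 10.83, 11.02 and 10.66 with Ra, against 10.37, 10.33 and 9.91 in control cells. Its lowest Ra array lay above its highest control array, a rise of 0.64 ± 0.14 on the log2 scale, or 1.55-fold (SE, 3 arrays per group, limma adjusted p = 0.0291). CTSB, a cysteine cathepsin abundant in most cells, gave 10.92, 11.28 and 11.18 with Ra, against 10.36, 10.38 and 10.76 in control cells. Again the groups did not overlap, and the rise was 0.63 ± 0.13 (limma adjusted p = 0.0253). Of its other probe sets, 3 gave 0.44 to 0.54 and a dim one gave 0.00. CTSF, another cysteine cathepsin, had 7.32, 7.04 and 7.04 with Ra, against 6.65, 6.71 and 6.65 in control cells, and rose by 0.46 ± 0.12 (limma adjusted p = 0.0391). The aspartic protease CTSD had a difference of 0.59 ± 0.26 but did not pass, and its Ra replicate 3, at 8.29, lay within the control arrays' 8.17 to 8.53. CTSZ (0.43), CTSA (0.33), CTSL (0.26) and TPP1 (0.24) did not pass either, although the arrays of CTSA and CTSL did not overlap.

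Among the other hydrolases the movement was mixed. ASAH1, acid ceramidase, which splits ceramide into sphingosine and a fatty acid, had 11.78, 11.81 and 11.48 with Ra, against 11.19, 11.23 and 10.93 in control cells. The groups were apart and it rose by 0.58 ± 0.12 (1.49-fold; limma adjusted p = 0.0215); its other probe sets above the filter gave 0.24 to 0.62. GUSB, β-glucuronidase, gave 10.53, 10.60 and 10.38 with Ra, against 10.27, 10.00 and 9.97 in control cells, and rose by 0.42 ± 0.11 (limma adjusted p = 0.0391). GLA, α-galactosidase A, went the other way, with 11.21, 11.17 and 11.16 with Ra, against 11.70, 11.55 and 11.39 in control cells. All 3 Ra arrays lay below the control arrays, and GLA fell by 0.37 log2 units (SE 0.09; limma adjusted p = 0.033). NAGLU, an enzyme of heparan sulfate breakdown, had the largest positive difference of the glycosidases, 0.47 ± 0.14, with arrays apart but a limma adjusted p of 0.0586. MANBA (0.24), HEXA (0.13) and NEU1 (0.11) overlapped between groups, as did the sulfatases ARSA (0.22) and SGSH (-0.19) and the lipid hydrolases LIPA (0.08) and PPT1 (-0.01).

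Of the 6 membrane proteins 2 rose. SCARB2, which carries β-glucocerebrosidase to the lysosome, had 11.37, 11.67 and 11.62 with Ra, against 11.15, 11.17 and 10.98 in control cells, and rose by 0.45 ± 0.10 (limma adjusted p = 0.0248). LAMP2, a glycoprotein of the limiting membrane, had 12.28, 12.46 and 12.21 with Ra, against 12.09, 11.97 and 11.99 in control cells, and rose by 0.30 ± 0.08 (limma adjusted p = 0.045). Both had arrays apart, and 2 further probe sets of SCARB2 gave 0.57 and 0.61. NPC1, the cholesterol exporter, had the largest difference of the membrane proteins, 0.60 ± 0.19, but overlapped between groups, with 11.85, 11.76 and 11.38 with Ra, against 11.44, 10.98 and 10.76 in control cells (limma adjusted p = 0.0699). MCOLN1 differed by 0.10, and LAMP1 and the tetraspanin CD63 by 0.00; of 3 further LAMP1 probe sets the dimmest gave -0.22 and another 0.24. The cofactors NPC2, which hands cholesterol to NPC1, and PSAP, the precursor of the saposins, differed by 0.23 and 0.14 and did not pass.

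Of the pump genes 1 passed without the block. ATP6V1D, a subunit of the rotor's central stalk, had 11.19, 11.12 and 11.28 with Ra, against 11.66, 11.55 and 11.55 in control cells. All Ra arrays lay below all control arrays, and it fell by 0.39 log2 units (SE 0.07; limma adjusted p = 0.0161). ATP6V1B2, which with the A subunit forms the ring that splits ATP, differed by as much, -0.39 ± 0.11, with arrays apart and a limma adjusted p of 0.0512. The median over 7 V1 subunits was -0.02, that over 5 V0 subunits -0.01, and the V0 values ran between -0.16 (ATP6V0C) and 0.04 (ATP6V0B). The highest V1 value was 0.16 (ATP6V1A), and 2 further probe sets of ATP6V1C1 gave -0.32 and -0.43 where the chosen one gave -0.02. The accessory proteins ATP6AP2 and ATP6AP1 differed by 0.20 and -0.10. Pump genes and hydrolases were not tested against each other. The regulators TFE3 (0.14 ± 0.12) and MITF (0.04 ± 0.06) did not pass.

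The block added NPC1 (limma adjusted p = 0.00372), CTSA (0.0117), CTSD (0.0284), ATP6AP2 (0.029), NPC2 (0.0319) and CTSL (0.0395) to those that rose and ATP6V1B2 (0.0075) to those that fell. The calls are sensitive to single arrays and to the fit. Leaving out Ra 12 h replicate 2 left 0 members higher, and the genes passing in all fell from 1366 to 293. Leaving out any of Ra replicate 1 or control replicates 1 to 3 left 1 or 2 members higher, when between 293 and 1388 genes passed in all. Leaving out Ra replicate 3 gave 10, when 1388 genes passed. The fit of all 12 arrays, which shares the wider spread of 48 h, called 0 members and 3 genes in all (0.0299%).

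**Figure D2:**
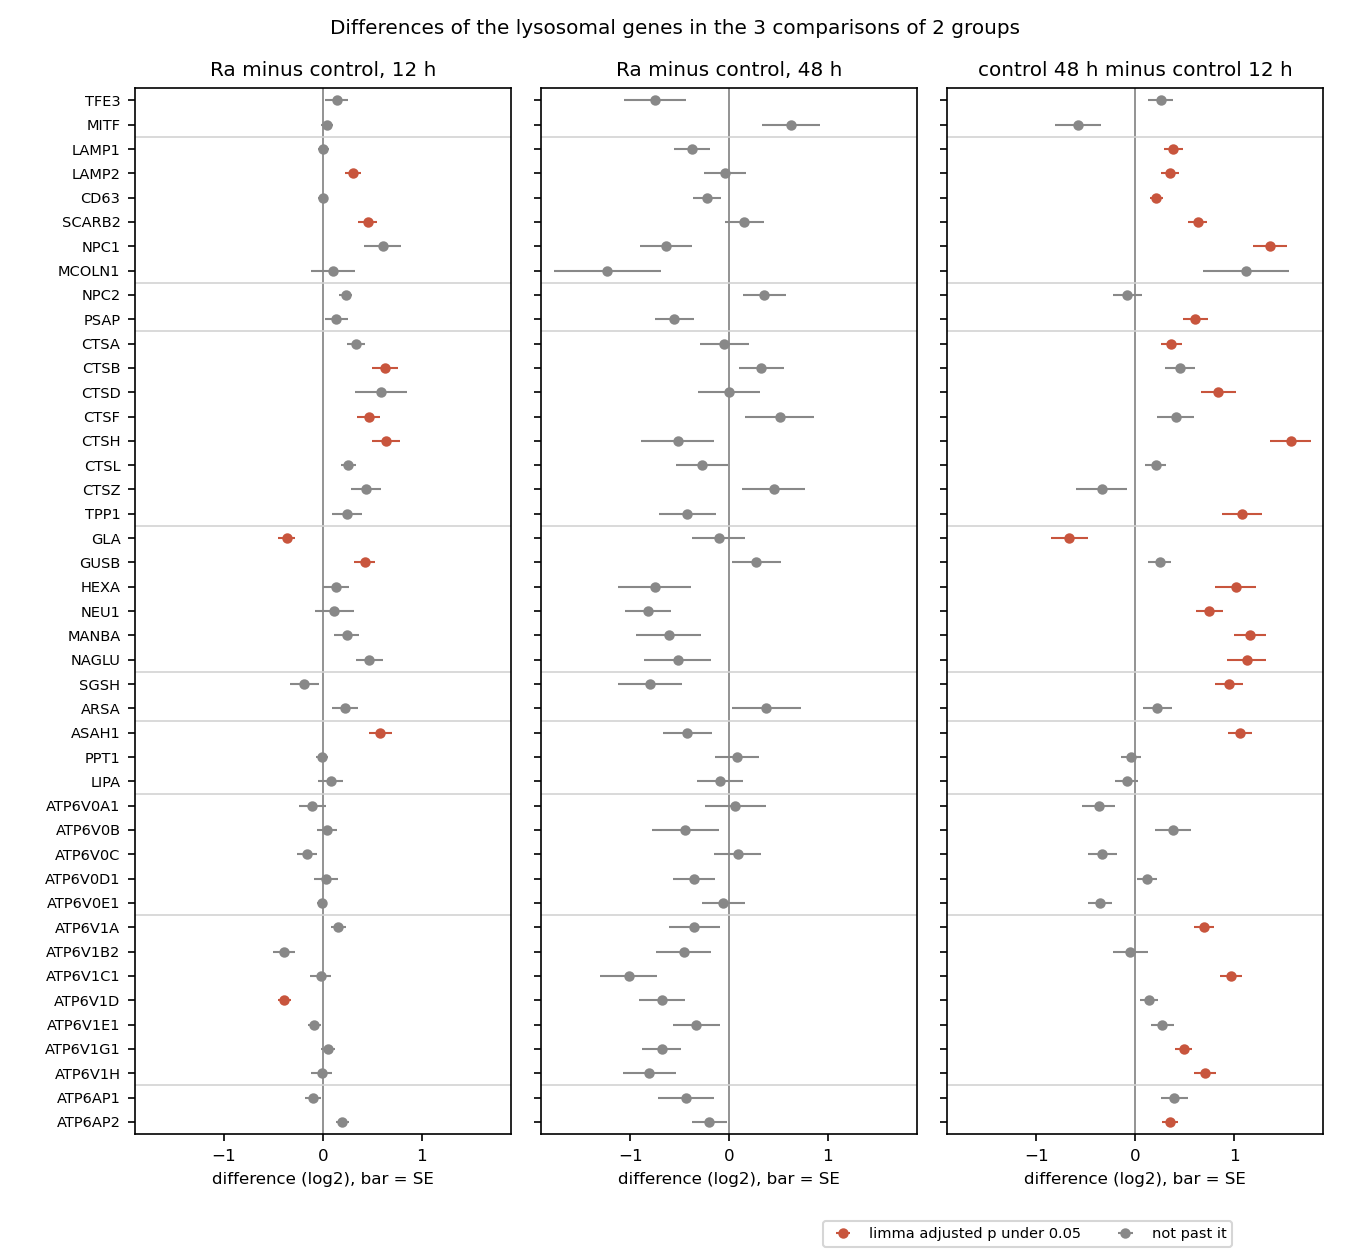
Points give the log2 difference of 43 lysosomal genes (rows, by role) in the comparisons of Ra with control at 12 h, of Ra with control at 48 h and of control at 48 h with control at 12 h, and bars give the standard error of limma's fit on 6 arrays. Red points passed an adjusted p of 0.05: 9 at 12 h, 0 at 48 h and 22 over time in control cells.

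The second comparison, control cells at 48 h against control cells at 12 h, showed where the untreated level of these genes went over the experiment. Lysosomal transcripts were widely higher at 48 h without any Ra: cathepsin H (CTSH), NPC1, β-mannosidase (MANBA), NAGLU, TPP1, ASAH1 and HEXA each more than doubled, and most membrane proteins and several V1 subunits rose with them. Of the 43 members 21 rose (48.8%) and 1 fell (2.33%) in limma's fit of the 6 control arrays, against 33.2% of all genes, 16.6% in each direction. The fit of all 12 arrays called 15 higher and 1 lower, against 9.37% and 10.1% of all genes. The median difference was 0.38 log2 units, against 0.01 over all genes. The arrays were apart and higher at 48 h for 28 members (65.1%, against 24.8% of all genes) and apart and lower for 3 (6.98%, against 26.0%). These control arrays also serve in the comparisons with Ra, so the results are not independent of them.

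CTSH had the largest rise, with 12.17, 11.68 and 11.48 in control cells at 48 h, against 10.37, 10.33 and 9.91 at 12 h. That is a rise of 1.58 ± 0.21, or 2.98-fold (SE, 3 arrays per group, limma adjusted p = 0.00408). TPP1, a tripeptidyl peptidase, had 10.95, 10.57 and 10.25 at 48 h, against 9.52, 9.71 and 9.31 at 12 h, and rose by 1.08 ± 0.20 (limma adjusted p = 0.00917). CTSD gave 9.39, 9.30 and 8.90 at 48 h, against 8.37, 8.53 and 8.17 at 12 h, and rose by 0.84 ± 0.17 (limma adjusted p = 0.0128). In all of these the lowest 48 h array lay above the highest 12 h array. CTSA also rose, by 0.37, so that 4 of 8 peptidases did. CTSB (0.46), CTSF (0.41) and CTSL (0.21) had arrays apart without passing, and CTSZ had a lower mean (-0.34).

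Of 6 glycosidases above the filter 4 rose and 1 fell. MANBA had 8.51, 8.28 and 8.10 at 48 h, against 7.32, 6.95 and 7.11 at 12 h, and rose by 1.17 ± 0.16 (limma adjusted p = 0.00444). NAGLU had 7.83, 7.32 and 7.18 at 48 h, against 6.32, 6.22 and 6.41 at 12 h, and rose by 1.13 ± 0.19 (limma adjusted p = 0.00751). HEXA, the α subunit of β-hexosaminidase, had 10.61, 10.35 and 9.93 at 48 h, against 9.46, 9.38 and 9.00 at 12 h, and rose by 1.02 ± 0.20 (limma adjusted p = 0.0121). NEU1, the lysosomal sialidase, rose by 0.75, and GUSB (0.25) did not pass. GLA fell here as it did with Ra at 12 h, with 10.62, 10.73 and 11.29 at 48 h, against 11.70, 11.55 and 11.39 at 12 h, a fall of 0.66 log2 units (SE 0.19; limma adjusted p = 0.0352).

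The sulfatase SGSH, which acts on heparan sulfate, had 9.22, 9.43 and 9.16 at 48 h, against 8.50, 8.15 and 8.31 at 12 h, and rose by 0.95 ± 0.14 (limma adjusted p = 0.00534), while ARSA differed by 0.22. ASAH1 had 12.25, 12.26 and 12.01 at 48 h, against 11.19, 11.23 and 10.93 at 12 h, and rose by 1.06 ± 0.12 (limma adjusted p = 0.00311), with 0.51 to 1.14 on its other probe sets above the filter. PPT1, which removes fatty acids from proteins, and LIPA, the acid lipase, differed by -0.04 and -0.08. The hydrolases as a group thus ranged between -0.66 and 1.58, with a median of 0.46 over the 19 measured above the filter.

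Among membrane proteins NPC1 had 12.39, 12.52 and 12.37 at 48 h, against 11.44, 10.98 and 10.76 at 12 h, and rose by 1.37 ± 0.17 (2.58-fold; limma adjusted p = 0.00374). SCARB2 (0.63), LAMP1 (0.39), LAMP2 (0.35) and CD63 (0.22) rose too, which makes 5 of 6. In the fit of all 12 arrays 2 of the 6 passed, NPC1 and SCARB2. With 1 array left out, LAMP1, LAMP2 and CD63 kept the call in 2, 2 and 1 of 6 fits. The dimmest LAMP1 probe set gave -0.02, and its others beside the chosen one gave 0.37 and 0.38. MCOLN1 had 8.25, 8.51 and 6.85 at 48 h, against 6.53, 6.56 and 7.16 at 12 h. Replicate 3 of 48 h lay among the 12 h arrays, and its difference of 1.12 ± 0.43 did not pass (limma adjusted p = 0.0872). Of the cofactors, PSAP rose by 0.61 and NPC2 differed by -0.08.

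In the pump 4 of 7 measured V1 subunits and 0 of 5 V0 subunits rose. ATP6V1C1, the C subunit of V1, had 11.97, 12.06 and 11.85 at 48 h, against 11.14, 11.00 and 10.83 at 12 h. It rose by 0.97 ± 0.11 (limma adjusted p = 0.00313), with 0.72 to 0.93 on its other probe sets. ATP6V1H (0.71), ATP6V1A (0.70) and ATP6V1G1 (0.49) rose as well, and ATP6V1B2 lay lowest in the sector at -0.05. The V0 values ran between -0.37 (ATP6V0A1) and 0.38 (ATP6V0B), with a median of -0.33 against 0.49 for V1. ATP6V0E1 entered with -0.35, while its other probe sets above the filter gave -0.33 to 0.15. ATP6AP2 rose by 0.35, and ATP6AP1 differed by 0.40 with arrays apart. Of the regulators, MITF had 10.54, 11.18 and 11.52 at 48 h, against 11.64, 11.68 and 11.65 at 12 h, apart but with a difference of -0.58 ± 0.23 that did not pass, and TFE3 differed by 0.26.

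Among the 11 members that rose over time in control cells and are in the promoter table, 6 hold CACGTG (54.5%): LAMP1, CD63, CTSA, CTSD, NEU1 and ATP6V1G1. Of the 18 others that were tested and are in the table, 4 hold it (22.2%): MCOLN1, CTSF, ATP6V0B and ATP6V0D1. CTSH, NPC1 and TPP1, which had some of the largest rises, have no match in this window. Of the members that rose with Ra at 12 h, 4 are in the table, of which 1 holds CACGTG (CTSF) and 0 hold TCACGTGA. The count of members that rose was 13 when control 12 h replicate 3 was left out, and 1429 of all genes passed then in either direction. It was 25 when replicate 3 of the 48 h controls was left out, when 4583 genes passed. It was 11 when probe set types that can cross-hybridise were dropped. LAMP1, LAMP2 and CD63 lost the call in that setting, while PSAP, CTSH, TPP1, HEXA, NAGLU, ATP6V1H and ATP6AP2 had no probe set left to test. Of the markers, SLC4A4 (1.04) and EPCAM (0.57) rose and SLC22A5 (-0.86) and KRT8 (-0.58) fell, and their part was not tested.

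**Figure D3:**
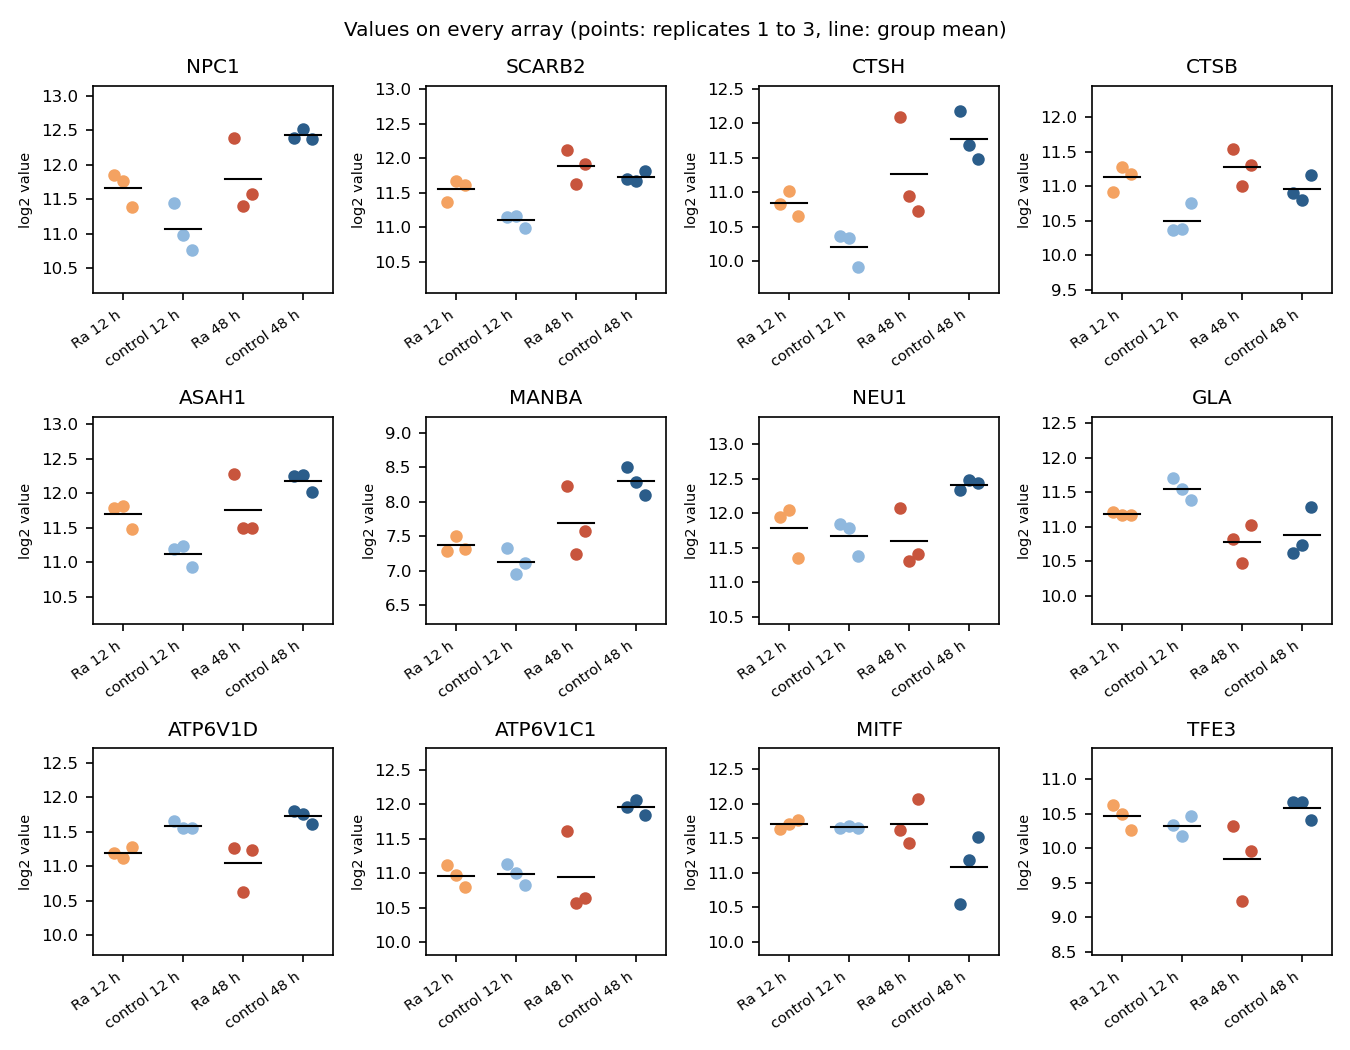
Points give the log2 value of 12 lysosomal genes on each array of the 4 groups (replicates 1 to 3 left to right), and lines give group means; each panel spans 3 log2 units on its own scale. In NPC1, CTSH, ASAH1, MANBA and ATP6V1C1 the control arrays of 48 h lie above those of 12 h, and Ra 48 h replicate 1 lies above the other Ra arrays of 48 h.

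The third comparison was Ra against control at 48 h. With Ra, 32 of the 43 members had means below those of the control cells (74.4%, against 67.1% of all genes), the lowest among them MCOLN1, ATP6V1C1, NEU1, ATP6V1H and SGSH, but the Ra arrays scattered widely and 0 members passed. Without Ra 48 h replicate 2 the shares below control were 60.5% and 49.0%. All 7 measured V1 subunits had lower means with Ra, between -1.02 and -0.33, and the 5 of V0 ran between -0.44 and 0.09. In limma's fit of the 6 arrays of 48 h, 0 of 10050 genes passed (0%). At an unadjusted p under 0.05 there were 10 members (23.3%) and 1748 genes (17.4%). In the fit of all 12 arrays 5 members passed, all lower (ATP6V1C1, NEU1, ATP6V1H, ATP6V1G1 and ATP6V1D), against 12.6% of all genes in either direction and 9.56% lower. That fit shares 1 spread over all groups and so draws on the 12 h arrays, whose median SD was smaller. The shared spread is too small for the Ra arrays of 48 h, so its calls at 48 h are less reliable than those of the fit of 6 arrays. The median over the 43 members was -0.35, against -0.20 over all genes, and without Ra 48 h replicate 2 these medians were -0.18 and 0.01, again with 0 genes past the test. The arrays were apart and lower for 7 members (16.3%, against 18.6% of all genes) and apart and higher for 0 (5.37% of all genes), a share close to the background. Of the markers, CDH6 (1.57, arrays apart), CDH1 (-1.48) and COL1A1 (-1.02, arrays apart) differed most and did not pass on 6 arrays, and CDH6 and CDH1 did on 12. Over all 9 fibroblast genes the mean level was 5.14 to 5.58 on the Ra arrays and 5.06 to 5.51 on the control arrays, over the 5 epithelial genes 10.68 to 11.35 and 11.11 to 11.57, and over the 14 measured proximal tubule genes 4.74 to 4.82 and 4.61 to 4.78, and their part was not tested.

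In the V1 sector 4 of 7 subunits had arrays apart and lower (57.1%, against 18.6% of all genes). Neither share is given here without Ra 48 h replicate 2, on which the median of all genes lay low. ATP6V1C1 had 11.61, 10.57 and 10.64 with Ra, against 11.97, 12.06 and 11.85 in control cells. Its Ra arrays all lay below the control arrays, by -1.02 ± 0.29 (SE, n = 3 per group; limma adjusted p = 0.206), and its 3 other probe sets gave -1.08 to -0.94. ATP6V1H, a regulatory subunit, had 10.26, 9.45 and 9.71 with Ra, against 10.67, 10.61 and 10.56 in control cells, a difference of -0.80 ± 0.27 (limma adjusted p = 0.229). Without Ra 48 h replicate 2 the difference was -0.83 for ATP6V1C1 and -0.63 for ATP6V1H. ATP6V1D and ATP6V1G1, a stator subunit, both differed by -0.68 with arrays apart, ATP6V1B2 by -0.46, ATP6V1A by -0.35 and ATP6V1E1 by -0.33, and without Ra 48 h replicate 2 the last 3 differed by -0.28, -0.19 and -0.13. The median over the 7 was -0.68, and it was -0.47 without Ra 48 h replicate 2, when the median of all genes was 0.01. In each of the 19 alternative settings run, every measured V1 subunit had a lower mean with Ra, with medians between -0.79 and -0.43. Some of these settings, such as the fit of all 12 arrays, change only the estimate of the spread. They leave the differences as they were and could not turn a sign.

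In the V0 sector the median was -0.06, with ATP6V0B lowest at -0.44 and ATP6V0C highest at 0.09. Without Ra 48 h replicate 2 ATP6V0B and ATP6V0C differed by -0.18 and 0.25. In that setting ATP6V0D1 was lowest at -0.28 and ATP6V0A1 highest at 0.33. The median turned positive in 5 of the 19 settings, among them 0.13 without Ra 48 h replicate 2. It is the value of the chosen probe set of ATP6V0E1, whose other probe sets above the filter gave -0.79 to -0.10, so it depends on that choice. The difference between the sectors was not tested. The accessory proteins ATP6AP1 and ATP6AP2 differed by -0.44 and -0.20, and by -0.26 and -0.03 without that array.

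Of the membrane proteins, MCOLN1 had 7.42, 5.79 and 6.71 with Ra, against 8.25, 8.51 and 6.85 in control cells. Its largest Ra value lay within the control arrays, and the difference of -1.23 ± 0.54 did not pass (limma adjusted p = 0.286; -0.80 without Ra 48 h replicate 2). NPC1 had 12.39, 11.41 and 11.58 with Ra, against 12.39, 12.52 and 12.37 in control cells, so that its first Ra array reached the control level and the other two did not (-0.64 ± 0.26). LAMP1 (-0.37), CD63 (-0.22) and LAMP2 (-0.04) had lower means, and SCARB2 a higher one (0.15). Without Ra 48 h replicate 2 they differed by -0.22, -0.10, 0.14 and 0.28, so that LAMP2 changed sign. PSAP and NPC2 lay on opposite sides, at -0.55 and 0.36.

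Among hydrolases the glycosidases lay lowest. NEU1 had 12.08, 11.32 and 11.42 with Ra, against 12.34, 12.48 and 12.43 in control cells, apart by -0.81 ± 0.23 (limma adjusted p = 0.205; -0.67 without Ra 48 h replicate 2). HEXA had 10.02, 8.78 and 9.83 with Ra, against 10.61, 10.35 and 9.93 in control cells, an overlapping difference of -0.75 ± 0.37. SGSH had 9.04, 7.94 and 8.43 with Ra, against 9.22, 9.43 and 9.16 in control cells, apart by -0.80 ± 0.33. Without Ra 48 h replicate 2 HEXA differed by -0.37, SGSH by -0.53, MANBA by -0.39, NAGLU by -0.31 and GUSB by 0.46. MANBA (-0.61) and NAGLU (-0.52) had lower means with overlapping arrays, while GUSB (0.28) and ARSA (0.38) had higher ones. The peptidases ran from CTSH (-0.52) to CTSF (0.51) and had a median of -0.03 (0.15 without that array), and ASAH1 and PPT1 differed by -0.42 and 0.08, PPT1 by 0.28 without it. The median over the 19 hydrolases was -0.10, and it was 0.04 without Ra 48 h replicate 2 and 0.15 with arrays centred on the tested genes, so its sign depends on the scaling.

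The 2 regulators above the filter differed in direction. TFE3 had 10.32, 9.23 and 9.96 with Ra, against 10.67, 10.66 and 10.41 in control cells, apart and lower by -0.75 ± 0.31 (limma adjusted p = 0.275; -0.44 without Ra 48 h replicate 2). MITF had 11.61, 11.43 and 12.07 with Ra, against 10.54, 11.18 and 11.52 in control cells, a difference of 0.63 ± 0.30 (limma adjusted p = 0.308), and 0.73 on another probe set. Ra 48 h replicate 1 also matters here: without it, ATP6V1C1 alone of the members passed, lower by -1.35 (limma adjusted p = 0.0492). In that setting 71 of all genes tested passed. With quantile normalization, which moves the median of all genes to 0.01, ATP6V1D and ATP6V1G1 passed (limma adjusted p = 0.0456 and 0.0468). Genes outside the members passed there too, and their count is given below with the other settings.

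**Figure D4:**
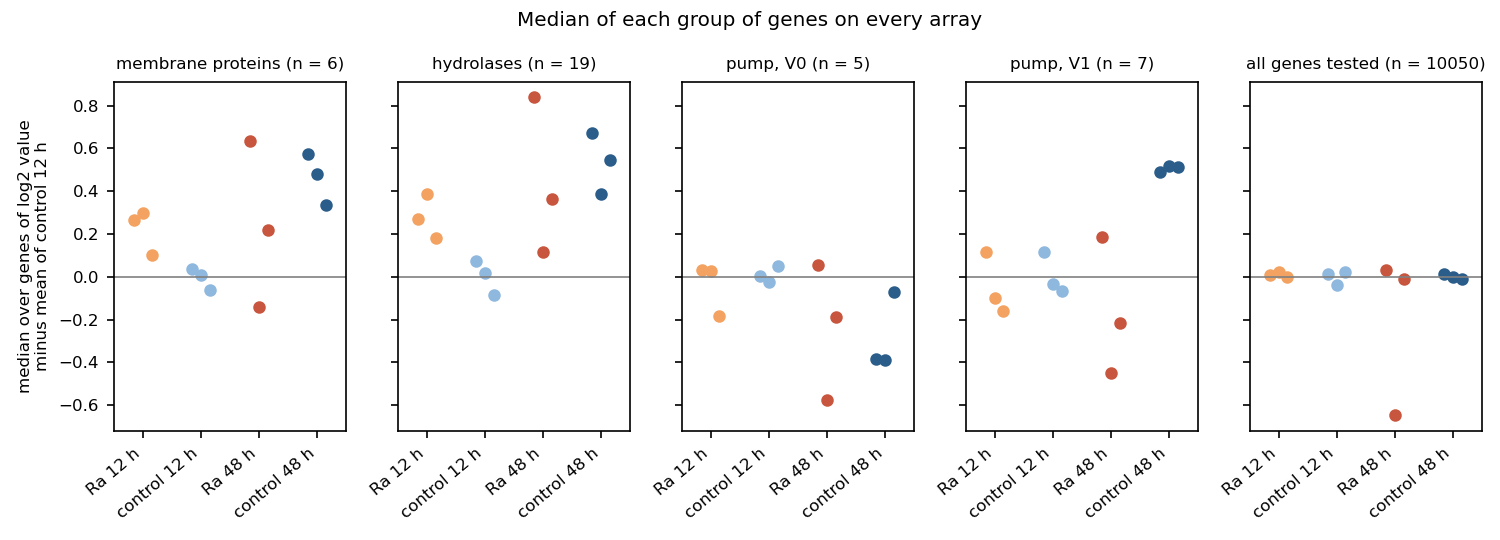
Each point is the median, on 1 array, over the genes of a role group of the log2 value minus the gene's mean over control arrays of 12 h. The V1 subunits stand at 0.49 to 0.52 on the control arrays of 48 h and at -0.45 to 0.18 on the Ra arrays of 48 h, and the panel of all genes shows the array that stands apart, Ra 48 h replicate 2, at -0.65.

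The fourth comparison took the effect of Ra at 48 h minus its effect at 12 h. The 6 largest differences were negative: MCOLN1 at -1.33 ± 0.64 log2 units, NPC1 at -1.24 ± 0.35, CTSH at -1.16 ± 0.43, ASAH1 at -0.9996 ± 0.29, ATP6V1C1 at -0.99 ± 0.33 and NAGLU at -0.98 ± 0.36 (SE, 12 arrays). In limma's fit of all 12 arrays 0 members passed, the lowest limma adjusted p among them being 0.108 (ATP6V1G1), and 2 of all genes did (0.0199%). At an unadjusted p under 0.05 there were 11 members (25.6%) and 1933 genes (19.2%). The median over the 43 was -0.38, against -0.19 over all genes, and 34 were negative (79.1%, against 65.6% of all genes). The members' median shrank to -0.22 once Ra 48 h replicate 2 was dropped. Measured from the control means of 12 h, all genes had a median of -0.65 on that array. It was 0.03 on Ra 48 h replicate 1 and -0.01 on replicate 3. The all-gene median and the shares of negatives are not given here with that array dropped, so the negative tilt depends on it to an unstated extent. The control arrays of both times enter the difference between times with the opposite sign to the Ra arrays.

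CTSH had 12.10, 10.95 and 10.73 in Ra-treated cells at 48 h, against 12.17, 11.68 and 11.48 in control cells at 48 h. The difference of Ra from control was 0.64 at 12 h and -0.52 at 48 h. ASAH1 had 12.28, 11.50 and 11.49 with Ra, against 12.25, 12.26 and 12.01 in control cells at 48 h, with differences of 0.58 at 12 h and -0.42 at 48 h. NAGLU had 7.44, 6.51 and 6.83 with Ra, against 7.83, 7.32 and 7.18 in control cells at 48 h, with differences of 0.47 at 12 h and -0.52 at 48 h. In each gene the first Ra array of 48 h lay above the other two. The largest positive differences by role were 0.26 for GLA, 0.25 for ATP6V0C, 0.16 for ARSA, 0.13 for NPC2, 0.09 for PPT1 and 0.05 for CTSF. Of the regulators, MITF had 0.58, against -0.89 for TFE3. Without Ra 48 h replicate 2 the same genes had 0.41, 0.42, 0.33, 0.28, 0.29, 0.30 and 0.72, against -0.58 for TFE3. In that setting ATP6V0A1 was at 0.44, above ATP6V0C, and ATP6V1B2 turned positive at 0.11.

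Leaving out Ra 48 h replicate 1 brought 12 members past the test, all lower, when 1041 of all 10050 genes passed, with NPC1 at -1.54, CTSH at -1.57, ATP6V1C1 at -1.32 and ASAH1 at -1.26 among them. Leaving out Ra 48 h replicate 2 brought 1 past it, ATP6V1G1 at -0.61 (limma adjusted p = 0.0452), when 320 genes passed in all, with NPC1 at -1.05 and ASAH1 at -0.87. All 6 membrane proteins were negative in the fit, and every measured one was negative in 23 of 24 alternative settings. The exception was arrays centred on the tested genes, where 5 of 6 were. Some of the 24 change only the estimate of the spread and could not turn a sign.

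Other lysosomal genes, from lists that do not overlap the 47, were set beside them, and over all genes 7.34% rose with Ra at 12 h and 16.6% rose and 16.6% fell over time in control cells. These lists too were chosen with earlier results of these data known, so they give no independent test. A first list held mostly further hydrolases, and also HGSNAT, which acetylates heparan sulfate ends and is no hydrolase. Of its 20 genes above the filter, 4 rose with Ra at 12 h and 0 fell. These were HGSNAT by 0.95, CTSO by 0.90, DNASE2 by 0.56 and IDS, iduronate sulfatase, by 0.45. In control cells over time 5 of the 20 rose, among them LGMN (1.16), FUCA1 (0.78), GALNS (0.73) and DNASE2 (0.70), and 1 fell (PLBD2, -0.50). Of 22 further membrane proteins, 3 rose with Ra at 12 h (GPR137B by 1.27, MCOLN3 by 0.94 and TPCN1 by 0.65), and 12 rose over time in control cells, with the cystine exporter CTNS at 1.84, the sialic acid exporter SLC17A5 at 1.60, PIP4P2 at 1.40 and GPR137B at 1.29. Of 7 further pump genes 0 passed with Ra at 12 h, with a median difference of 0.19 and 5 positive, against a median of 0.21 over the first list. DMXL1 (0.87) and DMXL2 (0.85), of the complex that helps assemble the pump, rose over time in control cells. At 48 h 0 genes of these lists passed with Ra on 6 arrays, and in the fit of 12 arrays 6 were lower and 1 higher, against 9.56% and 3.00% of all genes.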

How the data were processed

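The deposited log2 values are the authors' output of GCRMA, per the submitters' processing notes, with no version named. GCRMA corrects background, normalizes arrays and summarises probe sets, and it draws low signals together; which arrays were normalized together is not stated. Groups, times and replicate numbers come from the labels. Of 54675 probe sets, 41097 had 1 symbol in the platform annotation, 1801 several and 11777 none. Those with 1 symbol and at least 5 log2 units on at least 3 arrays were kept, and the one with the highest mean over 12 arrays stood for its gene, giving 10050 genes. No 2 arrays held identical values.

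Limma 3.58.1 (R 4.3.3) was fitted to the 6 arrays of each comparison, or to all 12 for the difference between times, with an intensity trend, two-sided, and Benjamini-Hochberg adjustment over 10050 genes at 0.05. P-values measure the spread between 3 samples per group. Same-numbered Ra and control arrays of 12 h deviated together from their group means (correlations 0.18, 0.42 and 0.34). At 48 h they gave 0.30, -0.22 and 0.10. No label states that the numbers pair the samples, so the block was an alternative and not the main fit. The code was tested on simulated data. Alternatives were other filters, probe set rules, normalizations, variance models, weights, the block and leaving out each array. Values on every array are given for up to 10 members past the test by size, and otherwise up to 6 with the largest difference; the largest rise and fall in each role are named, and up to 4 genes of each other list. The members and lists were chosen with earlier results of these data known. Promoters are RefSeq's (GRCh38.p14), read with Python 3.11.15; plots used matplotlib 3.10.9.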

Additional observations from a re-analysis of the deposited data

Results flagged for a closer look

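For 3 members every Ra array lay above the control mean at 12 h and below it at 48 h, so that the effect of Ra pointed in opposite directions at 12 h and 48 h. The difference between the effects was -1.24 log2 units for NPC1, -0.88 for HEXA and -0.85 for MANBA, and without Ra 48 h replicate 2 it was -1.05, -0.50 and -0.63. In limma's test of that difference over 12 arrays none of the 3 passed (limma adjusted p = 0.119, 0.265 and 0.208), so it is a description of the arrays and not a difference that was shown.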

How the results depend on the processing

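No member called in the fits of 6 arrays changed direction in an alternative that was run, while the number of calls moved. Alternatives that change only the estimate of the spread could not change a direction. At 12 h, 7 members were higher and 2 lower; without a filter 0 and 1, without cross-hybridising types 3 and 1, with all 12 arrays 0 and 0, and without the intensity trend 1 was lower. Array weights gave 15 higher, the replicate block 13, and all 12 arrays with one variance per group (chosen after seeing the data) 11. For array weights and for one variance per group no count over all genes at 12 h is given here. Those member counts therefore have no background beside them. Leaving out 1 array gave 0 to 10 higher and 0 to 2 lower, and a median between 0.053 and 0.24. Of all genes 1366 were called, 2351 with the block, 506 without a filter, 904 without cross-hybridising types, 3 with 12 arrays and 293 to 1388 with 1 array left out.

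For Ra at 48 h, the filter at 7 log2 units gave 1 lower, quantile normalization 2, 12 arrays 5, and array weights 8 higher and 20 lower; leaving out 1 array gave 0 to 1 lower. Of all genes 0 were called, and 307, 641, 1262 and 4790 under those 4 settings, 714 with arrays centred on the tested genes, 131 with the replicate block, and up to 71 with 1 array left out. For the difference between times, quantile normalization gave 4 lower, array weights 4 higher and 21 lower, and arrays centred on the tested genes (chosen after seeing the data) 1 lower with a median of -0.11; leaving out 1 array gave 0 to 12 lower. Of all genes 2 were called, 944 with quantile normalization, 4464 with array weights, 856 with arrays centred on the tested genes, 60 with the replicate block, 43 with the filter at 7 log2 units, 5 to 17 under 4 other settings and 1 to 1041 with 1 array left out.

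For control cells over time, 21 members were higher and 1 lower: 11 higher without cross-hybridising types, 0 lower without a filter or with the replicate block, 6 lower with array weights, 3 lower with one variance per group; leaving out 1 array gave 13 to 25 higher and 0 to 5 lower. Of all genes 3334 were called, 2091 without a filter, 5788 with array weights, 1955 with 12 arrays and 1429 to 4583 with 1 array left out. No count over all genes over time is given here for the block, for one variance per group or without cross-hybridising types. The member counts of those settings therefore have no background beside them. No label pairs the samples at either time, and at 48 h and over time same-numbered arrays did not correlate as pairs do. The block there gave 0 members at 48 h and 20 higher over time. The cause of these shifts was not tested. The number of arrays, 3 per group, limits the precision at both times, and the median SD of a gene between Ra replicates was 0.43 at 48 h, against 0.12 at 12 h.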

Other observations

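Genes that deliver enzymes to lysosomes or that control TFEB were also measured, and over all genes 7.34% rose with Ra at 12 h and 16.6% rose and 16.6% fell over time in control cells. Both lists were chosen with earlier results of these data known. Of 35 delivery genes above the filter, 1 rose with Ra at 12 h (2.86%) in limma's fit of 6 arrays: GNPTAB, a subunit of the enzyme that starts the mannose 6-phosphate tag, by 0.39 ± 0.10 log2 units (SE, n = 3 per group; limma adjusted p = 0.0448). In control cells at 48 h against 12 h, 8 of them rose (22.9%) and 3 fell (8.57%). VPS11, a subunit of the tethering complexes of late endosomes, rose by 1.60, IGF2R, the mannose 6-phosphate receptor, by 1.02 and SNX2 by 0.98, while AP1M1, a subunit of the clathrin adaptor AP-1, fell by 0.80.

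Of 24 genes of the control of TFEB, 1 rose with Ra at 12 h (4.17%), RRAGD, a Rag GTPase that recruits mTORC1 to lysosomes, by 1.27 ± 0.33 (limma adjusted p = 0.0449). Over time in control cells 7 rose (29.2%) and 2 fell (8.33%). RRAGD rose by 2.11 ± 0.29 (limma adjusted p = 0.00411), FNIP2 and FNIP1, partners of folliculin, by 1.13 and 1.04, and RRAGC by 0.96. With Ra at 48 h, 0 genes of either list passed on 6 arrays, and in the fit of all 12 arrays 6 delivery genes and 5 genes of TFEB control passed, all lower, against 9.56% of all genes lower in that fit.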
